A study of Mus musculus with 31 samples.

Results

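Mouse cells of the strain 129/OG2 that were being reprogrammed by OKSM (the factors Oct4, encoded by Pou5f1, Klf4, Sox2 and Myc) were infected with a Tet1CD or a Flag virus, kept with vitamin C (Vc) and collected at day 3. Tet1CD cells with Vc (2 libraries) were compared with Flag cells with Vc (2 libraries), 4 of the 31 RNA-seq libraries of the study, chosen by their labels and paired by the numbers 0824 and 0826 in their titles. The Flag virus is taken as the control. The labels do not spell out Tet1CD, a name usually given to the catalytic domain of TET1, nor the promoter of either virus or the dose of Vc, and all groups used here carry OKSM. The 8 other day 3 libraries are Flag or Tet1CD cells kept with DMSO or DKG (an abbreviation the labels do not explain), 2 in each group, and they share the fit from which the error was estimated. The 4 Vc libraries held between 4233404 and 5102771 counts, and 13079 genes were tested. Values below are CPM, counts scaled to a common library size, given first for library 0824 and then for library 0826. The labels do not tie the numbers to separate cultures, and the error behind each p-value is therefore that among these libraries, possibly technical alone.

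TET enzymes oxidise 5-methylcytosine in DNA with iron and 2-oxoglutarate, the first step of active demethylation, after which TDG and base excision repair can restore cytosine. Vitamin C keeps the iron of these and related dioxygenases reduced and raises the yield of reprogramming from fibroblasts. Methylation of CG dinucleotides silences a set of germline genes and many repeated elements in somatic cells, while a fibroblast that is reprogrammed loses matrix and contractile transcripts and gains cell cycle transcripts early.

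The libraries carried the virus named in their labels, as far as Tet1 reads show it. Tet1 (ENSMUSG00000047146; mm10, chromosome 10, 62804570 to 62908996, minus strand) stood at 5.71 and 12.2 CPM in Flag cells and at 442 and 485 CPM in Tet1CD cells. Both Tet1CD libraries lay far above both Flag libraries. The log2 fold change was 5.71 ± 0.25 (± SE; edgeR's quasi-likelihood test with the title number as a block, Benjamini-Hochberg adjusted p = 2.24e-09). Reads of the introduced sequence and of the endogenous gene cannot be told apart. Tet2, a TET enzyme of the same family, stood at 109 and 38.5 CPM in Flag cells and 71.6 and 31.0 CPM in Tet1CD cells, and Tet3 at 107 and 102 against 78.6 and 63.9 CPM. Both fell with the block (adjusted p = 0.0239 and 0.00375) and did not pass without it (adjusted p = 0.737 and 0.159).

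The 4 reprogramming factors were lower in Tet1CD cells within each pair. Pou5f1 (chromosome 17, 35506018 to 35510772) stood at 1867 and 1041 CPM in Flag cells and at 1294 and 741 CPM in Tet1CD cells. The 2 groups overlapped, since each 0824 library was higher than its 0826 counterpart by more than Tet1CD lowered it. Pou5f1 fell by 0.51 ± 0.07 on the log2 scale, Sox2 by 0.59 ± 0.09, Klf4 by 0.56 ± 0.09 and Myc by 0.50 ± 0.09 (adjusted p = 0.000256, 0.000575, 0.000478 and 0.00129). Without the block all 4 missed the threshold (adjusted p = 0.654, 0.73, 0.753 and 0.638), and with each Vc library left out in turn, block kept, all 4 passed, while 2 did in a fit of the 4 Vc libraries alone. Summed over the 4 genes, the levels were 6141 and 3433 CPM in Flag cells and 4357 and 2189 CPM in Tet1CD cells with Vc, against 5554 and 2727 CPM in Tet1CD cells with DMSO. These reads come from the introduced and the endogenous genes together.

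**Figure D1:**
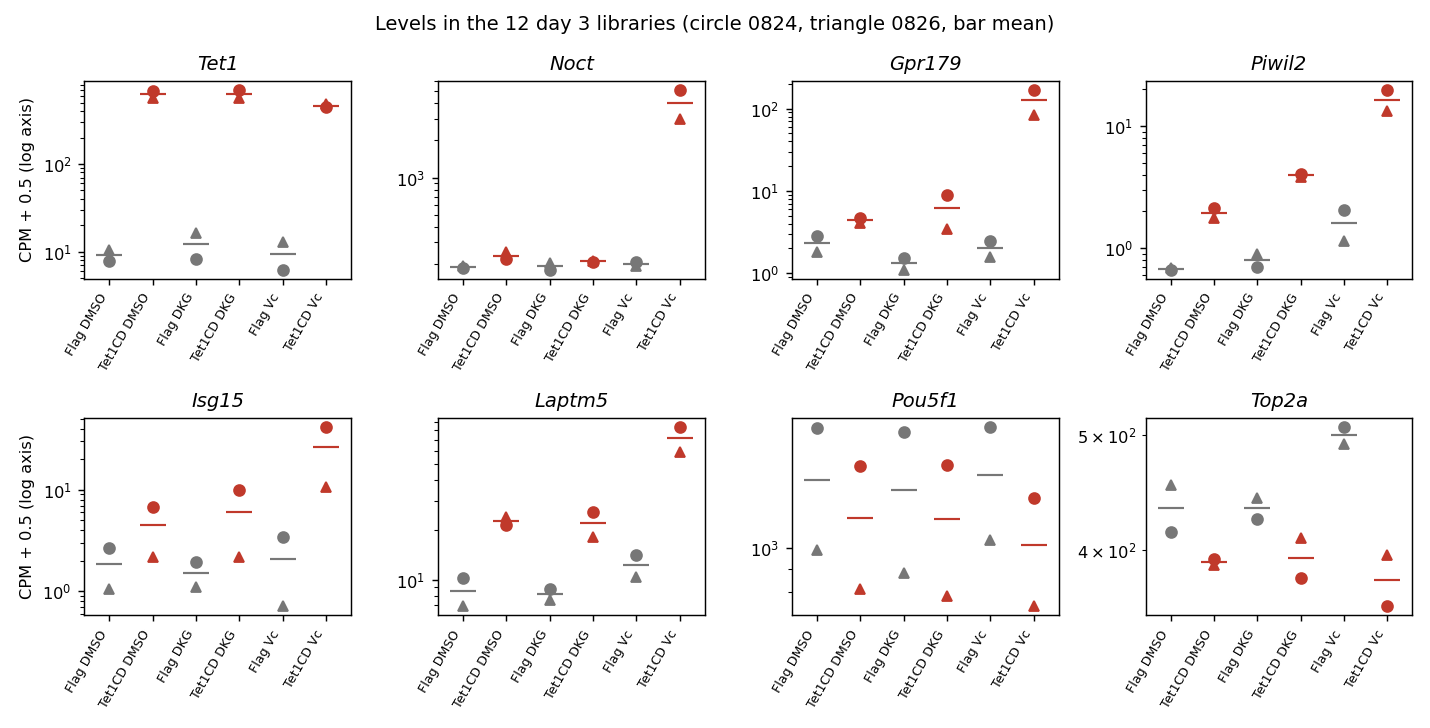
CPM + 0.5 (log axis) of 8 genes in each of the 12 day 3 libraries, by virus and medium, with circles for 0824, triangles for 0826 and a bar at the mean of the 2 libraries. Tet1 is high in all Tet1CD libraries, Noct and Gpr179 are highest in the Tet1CD Vc libraries, and Pou5f1 differs more between 0824 and 0826 than between viruses.

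With the title number as a block, 1667 genes were higher and 1105 lower in Tet1CD than in Flag cells with Vc, 12.7% and 8.45% of the genes tested. Without the block 177 were higher and 10 lower, 1.35% and 0.0765%, and every one of these 187 was also called with the block in the same direction. The calls below are made with the block, and 1490 of the higher and 1095 of the lower ones are lost without it. Of the 2772 genes called, 2763 moved the same way in both pairs, but most by little: the median log2 fold change was 0.76 among higher and -0.46 among lower genes, and 564 rose and 96 fell at least 2-fold. The total depended on the library Tet1CD Vc 0824, without which 1404 genes were called. With 2 libraries a group, an exact permutation test of a single gene could not give a two-sided p under 0.333.

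**Figure D2:**
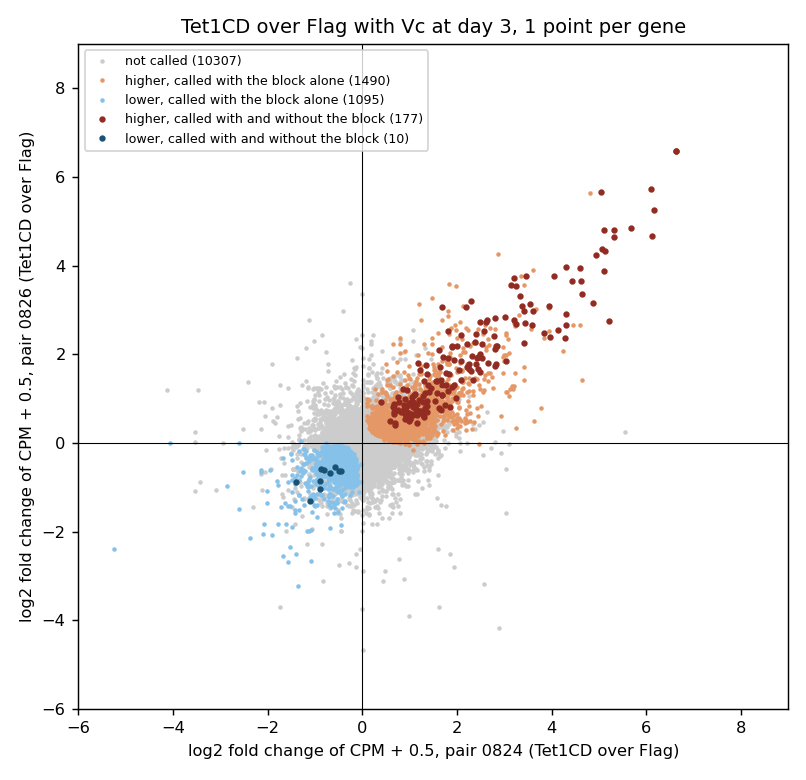
Log2 fold change of CPM + 0.5 (Tet1CD over Flag, Vc, day 3) in the pair 0824 on the x axis and the pair 0826 on the y axis, 1 point for each of the 13079 genes, coloured by call. The 177 genes called higher with and without the block include those farthest from 0 in both pairs, most of those called with the block alone lie near 0, and 1 gene lies outside the axes.

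Some of the genes with the highest rises have transcripts that share sequence. Of the 88 genes that rose at least 8-fold, 33 share a stretch of 50 bases with another of them, 48 share one with any gene, and 40 share none with any gene of the files. The share among all tested genes was not computed, so these counts describe the 88 genes alone. Some named genes outside the 88, such as Mdm2 and Ldha, also share a 50-base stretch with genes among them. The 30-base stretch below was chosen, after the values were seen, as 1 of 9 tied for being held by most of these genes. Ties were broken toward fewer holders in the files, and the stretch is shown because it links genes on different chromosomes. It is written 5′ to 3′ as in a 9797-base transcript of Noct (GENCODE M21; bases 4693 to 4722), with CG in capitals.
Shared stretch: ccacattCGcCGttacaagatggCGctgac
On either strand it is held by 11 of the 88 genes and by 24 genes in the files. Of 23 tested holders 18 were higher and 0 lower, against 12.7% and 8.45% of all genes tested. The 11 are so by choice. Of the 12 holders below 8-fold 7 were called higher, with log2 fold changes between 0.44 and 2.54. The way the stretch was chosen bears on that count too, so it is a description only. RSEM divides reads that match several genes by its model, and the kit does not mark strand, so the level of each single holder is uncertain and the source of the reads among them was not resolved.

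Noct (chromosome 3, 51224447 to 51251644), a circadian protein of the deadenylase family, stood at 210 and 192 CPM in Flag cells and at 5098 and 2963 CPM in Tet1CD cells. The log2 fold change was 4.32 ± 0.19 (adjusted p = 2.24e-09, and 3.28e-05 without the block). Slc38a6, an amino acid transporter gene on chromosome 12 that holds the stretch and is named here after its values were seen, stood at 197 and 179 against 6558 and 3729 CPM. Wdr31, a WD repeat gene (chromosome 4, 62448653 to 62470896), stood at 17.3 and 12.6 against 609 and 364 CPM (5.0 ± 0.24, adjusted p = 5.29e-09). Groups did not overlap for any of these, and the Tet1CD library 0824 was higher than 0826 in each.

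Among unnamed loci, Gm38194 (chromosome 1, 195321283 to 195323493) rose from 103 and 101 CPM to 5301 and 2924 CPM, and Gm29084 (chromosome 1, 62534491 to 62535942) from 57.7 and 52.4 CPM to 2301 and 1316 CPM. Both share 50-base stretches with Noct. Gm37375 on chromosome 9 and Gm37385 on chromosome 1 share all of their 50-base stretches with other genes and have identical counts, 0 in both Flag libraries and 244 and 195 in the Tet1CD libraries. Either is at least 152-fold higher, taking 3 counts over the Flag group as the floor, and which locus the reads come from cannot be told. Gm14149, Gm13632, Gm37371 and Gm11127 completed the highest genes with shared stretches, with log2 fold changes between 5.25 and 8.48, of which Gm37371 and Gm11127 missed the threshold without the block (adjusted p = 0.053 and 0.0504).

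The 33 genes linked by 50-base stretches, chosen on these libraries, took 2.39% and 1.33% of all counts in the Tet1CD Vc libraries. They took 0.082% and 0.0746% in the Flag Vc libraries, and between 0.0738% and 0.101% in the 8 libraries with DMSO or DKG. The Tet1CD libraries of those media thus lay near the Flag libraries for the same genes, although Tet1 itself stood at 686 and 572 CPM with DMSO and 699 and 568 CPM with DKG.

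Snhg14, the long noncoding host transcript of the imprinted Prader-Willi region (chromosome 7, 59307924 to 59975759), rose from 93.9 and 68.2 CPM to 499 and 378 CPM (2.44 ± 0.10, adjusted p = 2.16e-09). It shares a 50-base stretch with Wdr31 and Gm14149, so this rise need not be of the whole transcript.

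Other high genes had no stretch in common with any gene. Gpr179 (chromosome 11, 97332109 to 97352077), an orphan receptor known from retinal bipolar cells, rose from 1.97 and 1.07 CPM to 169 and 82.9 CPM (6.34 ± 0.22, adjusted p = 6.8e-10, and 0.00066 without the block). Cfap70 (chromosome 14, 20394193 to 20452226), a gene of motile cilia, had 1 and 2 counts in Flag cells and 238 and 95 in Tet1CD cells, a ratio of 115 (exact 95% counting interval 39.2 to 563). Mmrn2 (chromosome 14, 34375465 to 34404287), a matrix protein of endothelium, rose from 0.591 and 0.855 CPM to 33.01 and 25.1 CPM (5.29 ± 0.38, adjusted p = 5.94e-07). All 3 also passed without the block.

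Germline genes that DNA methylation silences in somatic cells were raised in part. Of 35 such genes in the files, 14 had a count in a Flag Vc library and 28 in a Tet1CD Vc library, and 11 were higher and 1 lower in both pairs. Only 6 passed the filter on low counts, so the 3 that were called stand for the list no further than their own values. Summed over the 35, the levels were 16.7 and 10.7 CPM in Flag cells and 69.6 and 41.1 CPM in Tet1CD cells with Vc, against 16.6 and 13.2 CPM in Tet1CD cells with DMSO and 17.7 and 15.6 CPM with DKG. The groups with Vc did not overlap. All 35 genes together are low, and Dazl had no count in any of the 4 libraries with DMSO.

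Piwil2, which binds piRNAs in the germline (chromosome 14, 70372477 to 70429383), stood at 1.58 and 0.641 CPM in Flag and 19.21 and 12.7 CPM in Tet1CD cells (log2 fold change 3.80 ± 0.37, adjusted p = 1.01e-05, and 0.00345 without the block). Tex19.1, which restrains retrotransposons in germ cells (chromosome 11, 121146143 to 121148319), had 0 and 1 counts against 83 and 41, a ratio of 129 (exact 95% counting interval 22.7 to 5130). Dazl, an RNA-binding protein of germ cells (chromosome 17, 50279395 to 50293636), had 0 and 1 counts against 41 and 15, a ratio of 58.2 (10 to 2340). These intervals cover counting error only. Tex19.1 and Dazl also passed without the block (adjusted p = 0.0125 and 0.0493). The other 3 tested members, Sycp1, Tex15 and Stag3, did not pass (adjusted p between 0.672 and 0.888).

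The promoter window of Dazl, from RefSeq, is shown because this gene class is defined by methylation of its CG dinucleotides. It holds 28 CG, printed in capitals, where the median over all tested genes with a window is 21. No methylation was measured here.
Dazl promoter (GRCm38.p6, chr17:50293571-50293870, minus strand): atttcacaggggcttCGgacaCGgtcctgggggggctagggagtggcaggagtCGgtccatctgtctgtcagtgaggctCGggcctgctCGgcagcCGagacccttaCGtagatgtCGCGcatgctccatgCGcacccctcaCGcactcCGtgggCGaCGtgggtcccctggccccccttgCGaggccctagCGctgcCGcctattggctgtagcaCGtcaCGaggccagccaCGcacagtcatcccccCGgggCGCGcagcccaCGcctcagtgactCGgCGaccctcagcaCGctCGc

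Interferon response genes, which cells switch on after sensing viral or other nucleic acids, were higher in Tet1CD cells. Of 34 in the files 27 were tested, of which 21 rose and 0 fell with the block, against 12.7% of all genes that rose. Of the 34, 29 were higher and 1 lower in both pairs. The median log2 fold change of those tested was 2.07, against -0.02 over all genes. Without the block 1 of the 27, the RNA sensor Ddx58, passed (adjusted p = 0.0125), and without the library Tet1CD Vc 0824 14 did. Summed over the 34 genes, the levels were 462 and 412 CPM in Flag cells and 1401 and 620 CPM in Tet1CD cells, so the rise was larger in the pair 0824.

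Isg15, a ubiquitin-like modifier (chromosome 4, 156199424 to 156200818), stood at 2.95 and 0.214 CPM in Flag cells and at 41.2 and 10.2 CPM in Tet1CD cells (4.03 ± 0.32, adjusted p = 1.53e-06, and 0.138 without the block). The enzymes that make 2-5A and activate RNase L moved alike: Oas2 stood at 14.96 and 1.07 CPM against 107 and 8.77 CPM, so that a Flag library of 0824 exceeded the Tet1CD library of 0826. Oas3 stood at 1.18 and 0.214 CPM against 23.6 and 3.17 CPM, and Oasl2 at 5.51 and 1.71 CPM against 50.02 and 10.7 CPM. All 3 rose with the block (adjusted p between 2.09e-05 and 4.1e-05), and none passed without it (adjusted p between 0.159 and 0.397). Irf7 and Usp18, an amplifying factor and an inhibitor of the pathway, rose too, by 3.16 ± 0.44 and 3.18 ± 0.41 on the log2 scale, and missed the threshold without the block (adjusted p = 0.149 and 0.0549). The cytosolic RNA sensors Ifih1 and Ddx58 rose by 2.07 and 1.72 (adjusted p = 0.000228 and 5.17e-05).

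The Isg15 promoter is shown because interferon-stimulated genes are known to carry repeated GAAA elements. Letters that match GAAANNGAAA on either strand are in capitals, with 3 matches that overlap each other.
Isg15 promoter (GRCm38.p6, chr4:156200769-156201068, minus strand): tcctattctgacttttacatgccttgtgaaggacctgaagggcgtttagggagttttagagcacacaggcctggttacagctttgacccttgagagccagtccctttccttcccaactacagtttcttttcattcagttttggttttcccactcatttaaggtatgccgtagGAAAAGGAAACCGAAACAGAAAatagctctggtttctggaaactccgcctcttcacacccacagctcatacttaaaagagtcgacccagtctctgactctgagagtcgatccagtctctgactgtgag
Among the tested list members with a window, 14 of 22 (63.6%) held such a match, as did 11 of the 16 raised (68.8%), 6.0% of all raised genes and 3.56% of all tested genes (in any window of a gene), against 3.44% of all 32851 windows. The match describes letters and not binding.

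**Figure D3:**
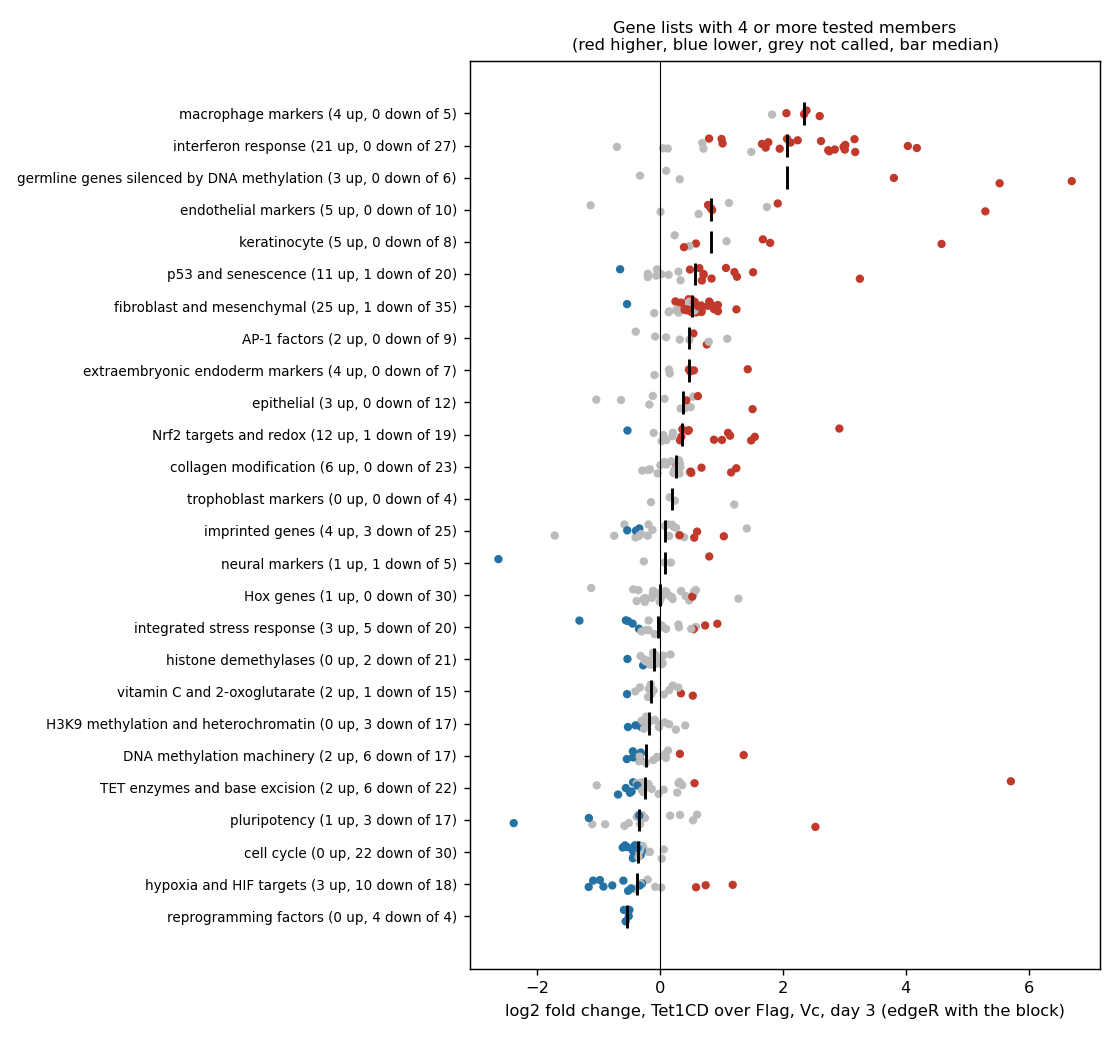
Log2 fold change (Tet1CD over Flag, Vc, day 3, edgeR with the block) of the tested members of each list with 4 or more of them, 1 point per gene, red where higher and blue where lower at the threshold, with the median as a black bar. The interferon list has a median of 2.07, the germline list shows the 6 of its 35 genes that passed the count filter, and the cell cycle and reprogramming factor lists have medians of -0.36 and -0.53.

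Fibroblast and mesenchymal genes were higher in Tet1CD cells within the pairs. All 35 were tested, and 25 rose and 1 fell, against 12.7% and 8.45% of all genes, with a median log2 fold change of 0.51. Without the block none of the 35 passed, and without the library Tet1CD Vc 0824 13 rose, as many as in a fit of the 4 Vc libraries alone. Summed over the list, the levels were 11820 and 20310 CPM in Flag cells and 19640 and 25090 CPM in Tet1CD cells, so that the groups overlapped. With DMSO they were 16220 and 23910 CPM in Flag cells and 19480 and 28200 CPM in Tet1CD cells. Flag cells with Vc thus stood below Flag cells with DMSO, and Tet1CD cells with Vc did not stand above those with DMSO in both numbers. The libraries with the higher fibroblast sum in each group, those numbered 0826, had the lower OKSM sum. In bulk RNA, more cells of a type and more RNA per cell cannot be told apart. The part of OKSM levels in the difference between Tet1CD and Flag cells was not tested.

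S100a4, a calcium-binding protein of motile fibroblasts (chromosome 3, 90603771 to 90606045), rose from 115 and 274 CPM to 316 and 572 CPM (1.24 ± 0.10, adjusted p = 2.3e-06, and 0.329 without the block). Thbs1, a matrix glycoprotein (chromosome 2, 118111876 to 118127133), rose from 1414 and 2468 CPM to 2856 and 4133 CPM (0.88 ± 0.08, adjusted p = 7.99e-06). The smooth muscle actin gene Acta2 and its partner Tagln rose by 0.88 ± 0.11 and 0.80 ± 0.10. Of the 23 collagen modification genes 6 rose, against 12.7% of all genes. Among the 6, the crosslinking enzyme Loxl3 rose from 35.4 and 51.3 CPM to 103 and 99.2 CPM (adjusted p = 6.41e-05, and 0.0258 without the block). It was the 1 gene of that list that passed without the block. Col1a2, a chain of type I collagen, and Vim, which encodes vimentin, rose by 0.34 each (adjusted p = 0.0259 and 0.00784).

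Cell cycle genes were lower in Tet1CD cells. All 30 were tested, of which 22 fell and 0 rose with the block, against 8.45% of all genes that fell, with a median log2 fold change of -0.36. Their summed levels were 4889 and 4682 CPM in Flag cells and 3653 and 3568 CPM in Tet1CD cells, so the groups did not overlap. The Flag cells with Vc were also above Flag cells with DMSO (4092 and 4364 CPM), and Tet1CD cells with DMSO stood at 4007 and 3845 CPM. Bub1b, a spindle checkpoint kinase (chromosome 2, 118598211 to 118641591), fell from 145 and 150 CPM to 96.8 and 102 CPM (-0.57 ± 0.09, adjusted p = 0.000372). It was the 1 gene of the list that passed without the block (adjusted p = 0.0208). The helicase subunit Mcm5 fell by 0.54 ± 0.09 on the log2 scale, the replication clamp Pcna by 0.43 ± 0.08 and topoisomerase Top2a by 0.41 ± 0.08. Without the library Flag Vc 0824 or Tet1CD Vc 0826, 11 of the 30 fell, and 2 did in a fit of the 4 Vc libraries alone.

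**Figure D4:**
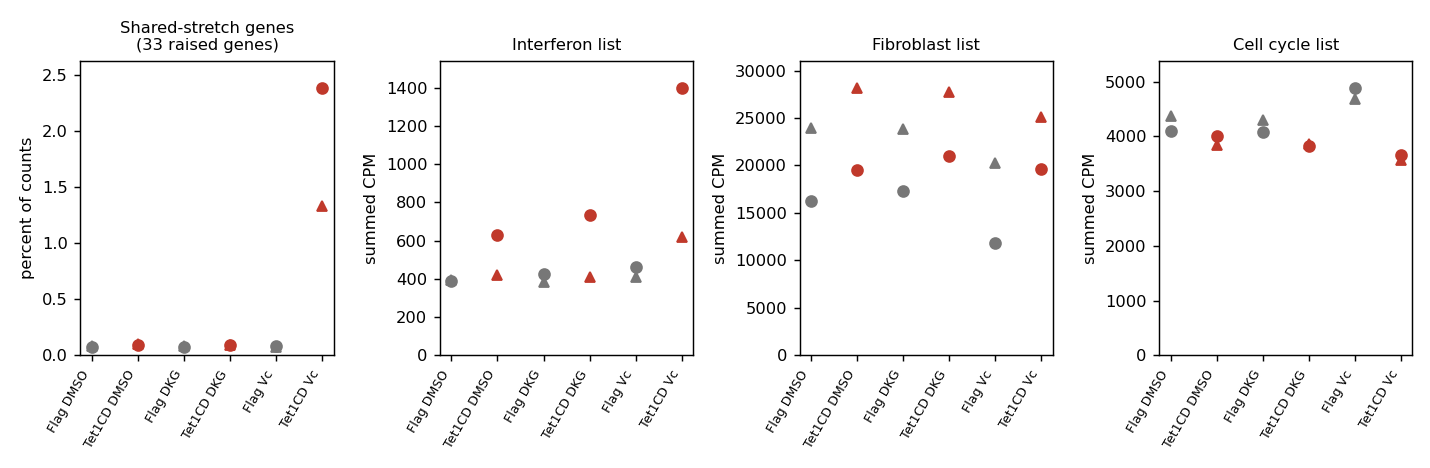
Percent of all counts in the 33 genes linked by shared stretches, and summed CPM of the interferon, fibroblast and cell cycle lists, in the 12 day 3 libraries (circles 0824, triangles 0826, grey Flag, red Tet1CD). The linked genes reach 2.39% and 1.33% in the Tet1CD Vc libraries and stay at or below 0.101% elsewhere, and the cell cycle sum is lowest in the Tet1CD Vc libraries.

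Genes of p53 and senescence were mostly higher, with 11 of 20 up and 1 down, and 2 up without the block. Over all genes tested, 12.7% rose and 8.45% fell with the block. Trp53inp1, a p53-induced protein (chromosome 4, 11156431 to 11174379), rose from 123 and 131 CPM to 238 and 301 CPM (1.07 ± 0.10, adjusted p = 1.05e-05, and 0.0279 without the block). Mdm2, which degrades p53, rose by 0.84 ± 0.10 and the cyclin Ccng1 by 0.68 ± 0.09, and both missed the threshold without the block (adjusted p = 0.286 and 0.249). Nrf2 targets rose in 12 of 19 genes and fell in 1, and 3 rose without the block. Gsta4, a glutathione transferase, rose from 75.4 and 65.8 CPM to 157 and 127 CPM (adjusted p = 2.95e-05) and Slc7a11, a cystine transporter, from 13.8 and 8.76 CPM to 31.6 and 31.9 CPM (adjusted p = 0.000234). Both passed without the block (adjusted p = 0.0179 and 0.0191), while Nqo1 and Srxn1 rose with the block alone.

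Hypoxia and HIF targets fell in 10 of 18 genes and rose in 3, against 8.45% and 12.7% of all genes. None of the 18 passed without the block. Pdk1, which restrains pyruvate entry to mitochondria, fell from 91.1 and 58.8 CPM to 42.4 and 25.3 CPM (-1.16 ± 0.16, adjusted p = 0.000193). The glycolytic enzymes Ldha and Eno1 fell by 0.52 ± 0.07 and 0.47 ± 0.07, and Egln3, an oxygen-sensing 2-oxoglutarate dioxygenase, by 0.92 ± 0.15. None of these 4 passed without the block (adjusted p between 0.0886 and 0.465). Slc16a3, the lactate exporter (chromosome 11, 120948480 to 120960868), stood at 61.6 and 32.5 CPM against 20.4 and 4.63 CPM (-2.02 ± 0.25, adjusted p = 7e-05, and 0.372 without the block).

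Among DNA methylation genes and among TET and base excision genes more fell than rose, with median log2 fold changes of -0.23 and -0.24. Of 17 methylation genes 2 rose and 6 fell. Zbtb38, a protein that binds methylated DNA (chromosome 9, 96682770 to 96752831), rose from 66.3 and 72.5 CPM to 175 and 180 CPM (1.36 ± 0.13, adjusted p = 6.6e-06, and 0.00832 without the block). Uhrf1, which brings DNMT1 to replicating DNA, fell from 193 and 186 CPM to 141 and 119 CPM (-0.54 ± 0.09, adjusted p = 0.00094, and 0.0493 without the block). Trim28, which silences retroelements, fell by 0.44 ± 0.08 and Mbd3 by 0.44 ± 0.11, and neither passed without the block (adjusted p = 0.147 and 0.3). Of 22 TET and base excision genes 2 rose, Tet1 included, and 6 fell, among them Tdg by 0.44 ± 0.11 and Parp1 by 0.46 ± 0.09. Of 17 genes of H3K9 methylation 3 fell, Suv39h1, Cbx5 and Ehmt1, and of 21 histone demethylases 2 fell, Kdm4b and Kdm1a. Over all genes, 12.7% rose and 8.45% fell. Without the block no gene of these last 3 lists fell, with adjusted p = 0.151 for Tdg and 0.334 for Parp1.

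Of the pluripotency list 17 of 38 genes were tested, and 1 rose and 3 fell, against 12.7% and 8.45% of all genes. Gdf3, a growth factor of pluripotent cells, stood at 7.48 and 1.07 CPM against 34.4 and 12.9 CPM (2.53 ± 0.34, adjusted p = 0.000161, and 0.213 without the block). Nr0b1, a nuclear receptor that restrains differentiation, fell from 11.8 and 1.28 CPM to 2.40 CPM and 0, and no gene of the list passed without the block. Nanog stood at 5.91 and 0.214 CPM against 2.40 and 0.244 CPM and was not called (adjusted p = 0.317). Dppa3, Tcl1, Prdm14 and Otx2 had no count in any of the 4 libraries. None of the 19 two-cell-like genes in the files was tested, and 1 of them had a count in Flag and 6 in Tet1CD cells with Vc.

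Markers of other cell types moved as well, mostly at low levels. Over all genes tested 12.7% rose and 8.45% fell. A marker with few counts elsewhere can pass the count filter through the group where it is high. The calls among tested markers therefore do not stand for the whole lists. Of 15 macrophage markers 5 were tested and 4 rose. The lysosomal protein Laptm5 (chromosome 4, 130913125 to 130936141) rose from 13.6 and 9.83 CPM to 83.6 and 58.7 CPM (2.60 ± 0.18, adjusted p = 2.78e-07, and 0.00233 without the block). Cd68 rose from 4.92 and 4.70 CPM to 30.01 and 20.5 CPM, Itgam from 2.95 and 5.34 CPM to 16.4 and 17.5 CPM, and Lyz2 from 1.97 and 4.70 CPM to 29.8 and 6.82 CPM, the last of which missed the threshold without the block (adjusted p = 0.167). The 15 markers summed to 26.7 and 29.0 CPM in Flag cells and 173 and 108 CPM in Tet1CD cells, with the defining factor Spi1 and Aif1 at 0 in all 4. Csf1r stood at 0.591 and 1.71 CPM against 4.001 and 3.90 CPM and did not pass (adjusted p = 0.0537). Of 10 tested endothelial markers 5 rose, among them Mmrn2, which alone passed without the block, and Eng (adjusted p = 0.0545 without it). Of their list of 30, 11 were higher and 6 lower in both pairs, and Tal1 had no count in any of the 4 libraries. The list summed to between 200 and 278 CPM in Flag cells and to between 398 and 415 CPM in Tet1CD cells. Of 17 keratinocyte genes 8 were tested and 5 rose, among them the checkpoint protein Sfn, from 12.01 and 20.1 CPM to 54.2 and 52.6 CPM (adjusted p = 3.43e-05, and 0.0851 without the block). Sprr1b, a precursor of the cornified envelope, had 0 and 1 counts against 17 and 11, a ratio of 29.1 (4.81 to 1190), and no gene of the list passed without the block. The keratinocyte list summed to 258 and 252 CPM against 370 and 379 CPM. The part of such cells in the results was not tested.

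The other lists, with their calls up and down among the tested members, were epithelial genes (3 and 0 of 12, among them Jup), AP-1 factors (2 and 0 of 9, Fosl2 and Fosl1), integrated stress response (3 and 5 of 20, with Shmt2 and Phgdh lower), and imprinted genes (4 and 3 of 25). They further included the vitamin C and 2-oxoglutarate list (2 and 1 of 15, Gsto1 and Slc23a2 higher and Idh2 lower), Hox genes (1 and 0 of 30, Hoxc6), neural markers (1 and 1 of 5, with Nes higher), muscle markers (2 and 0 of 3, Des and Tnnt2) and extraembryonic endoderm markers (4 and 0 of 7, led by Cubn). Of all 12 muscle markers 2 were higher and 1 lower in both pairs. The muscle factors Myod1, Myog, Myf5, Myf6 and Pax7 had no count in any of the 4 libraries. None of 4 tested trophoblast markers was called, with Gata3 at adjusted p = 0.0964 and Tead4 at 0.427, and no mesoderm marker was tested. Over all genes tested 12.7% rose and 8.45% fell, and the counts of the vitamin C and imprinted lists lie near these shares. Among imprinted genes Grb10, a growth inhibitor, fell from 1242 and 1460 CPM to 860 and 1005 CPM (-0.53 ± 0.07, adjusted p = 8.31e-05), while Zdbf2 and Igf2r rose by 1.04 ± 0.15 and 0.60 ± 0.09. Without the block Grb10 and Igf2r missed the threshold (adjusted p = 0.13 and 0.413), and of these lists from epithelial to trophoblast Zdbf2 and Cubn alone passed (adjusted p = 0.0279 and 0.0154).

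The lowest genes differed strongly between library numbers and none of the 8 passed without the block. Arhgap36, an inhibitor of protein kinase A (chromosome X, 49463945 to 49500244), stood at 213 and 42.5 CPM in Flag cells and 56.0 and 9.75 CPM in Tet1CD cells (-1.95 ± 0.14, adjusted p = 7.14e-07, and 0.444 without the block). The groups overlapped, with Tet1CD 0824 above Flag 0826. Tox3 fell by 2.25 ± 0.29, Insm1, a factor of neuroendocrine cells, by 1.96 ± 0.32, the transporter Slc38a5 by 1.95 ± 0.41 and Ndufa4l2 by 2.08 ± 0.48. Gm14288 had 94 and 10 counts in Flag cells and 0 in both Tet1CD libraries. By counting error alone, with 3 counts over the Tet1CD group as the floor, it was at least 33.3-fold lower. All of its 50-base stretches are shared with other genes, 42 in number, so that the locus its reads come from is uncertain.

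The genes that rose tended to be those of fibroblasts, and those that fell those of embryonic stem cells (ESC). Of the 1667 higher genes 921 (55.2%) were higher in MEF (embryonic fibroblasts) than in ESC and 201 (12.1%) higher in ESC, in a separate contrast of 2 MEF and 2 ESC libraries. Of the 1105 lower genes 95 (8.6%) were higher in MEF and 608 (55%) higher in ESC. Among all 13079 genes the shares were 27.7% and 24.8%. Among the 177 genes called higher without the block they were 39% and 30.5%.

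Promoters of the genes that rose held fewer CG than those of other genes. The windows, 250 bases before to 50 after each start, matched 9947 of the tested genes, counting the first listed window of a gene, with a median of 21 CG and at least 10 CG in 83.8%. Of the raised genes with a window 71.1% had at least 10 CG, of those raised 2-fold or more 47% and of those raised 8-fold or more 29.4% (51 of 88 had a window). Of the lowered genes 89.6% did. These are descriptions, and the level of expression, which CG content follows, was not held equal.

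Whether Tet1CD acted differently with Vc than with the other media was tested in the same fit. Tet1CD changed 124 genes (0.948%) with DMSO and 105 (0.803%) with DKG, and 1 gene with each without the block. The difference between the Vc and the DMSO effect was called in 119 genes (0.91%), 100 of them higher with Vc, and between Vc and DKG in 82 (0.627%), 74 of them higher with Vc. Without the block these counts were 14 and 13, all higher with Vc. Leaving out single Vc libraries moved the first between 52 (without Tet1CD 0824) and 624 (without Flag 0826, and 314 without Tet1CD 0826) and the second between 40 and 452 (233 without Tet1CD 0826), in the same order. Tet1 itself was not among them (adjusted p = 0.643 and 0.984), with a difference of -0.49 ± 0.42 from the DMSO effect.

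By p-value, genes with shared stretches came first among these differences. Noct stood at 220 and 250 CPM in Tet1CD cells with DMSO and 208 and 214 CPM with DKG, near the Flag cells with DMSO at 186 and 195 CPM, and its rise with Vc exceeded that with DMSO by 4.01 ± 0.25 and that with DKG by 4.19 ± 0.25 on the log2 scale (adjusted p = 5.03e-07 and 4.42e-07). Gm29084, Gm38194 and Snhg14 did likewise, by 4.92 ± 0.26, 5.01 ± 0.31 and 2.35 ± 0.15 over DMSO. By size Gpr179, which shares no stretch, differed from the DMSO effect by more than these, 5.23 ± 0.52 (adjusted p = 8.02e-05). It rose by 2.74 with DKG (adjusted p = 0.00616) and stood at 8.49 and 2.92 CPM there, and its rise with Vc was higher by 3.61 ± 0.70 (adjusted p = 0.0298). Trp53inp1 differed from the DMSO effect by 1.21 ± 0.15 (adjusted p = 0.00077) and Arhgap36 by -1.65 ± 0.21 (adjusted p = 0.00103).

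Of the p53 and senescence list, 4 of 20 genes differed from the DMSO effect and 2 from the DKG effect, against 0.91% and 0.627% of all genes. Among them were Mdm2 (0.85 ± 0.14 over DMSO, adjusted p = 0.0123, and 0.0218 against DKG) and Ccng1 (0.64 ± 0.12 over DMSO, adjusted p = 0.0261). Grb10 differed from both (adjusted p = 0.02 and 0.0314). For Isg15 and Oasl2 the Vc effect exceeded that with DMSO by 2.49 ± 0.58 and 0.57 ± 0.66 (adjusted p = 0.0601 and 0.751), and no member of the interferon list differed from either medium. Oasl2 rose with DMSO and with DKG too (adjusted p = 0.023 and 0.0203), and Isg15 with DKG (adjusted p = 0.0192). Laptm5 rose in all 3 media, with 20.9 and 23.6 CPM in Tet1CD and 9.79 and 6.39 CPM in Flag cells with DMSO. Piwil2 stood at 1.64 and 1.27 CPM in Tet1CD and 0.169 and 0.188 CPM in Flag cells with DMSO, and its rise with Vc was not shown to differ (adjusted p = 0.824). With DKG Piwil2 rose too, at 3.575 and 3.332 CPM in Tet1CD and 0.208 and 0.3997 CPM in Flag cells (adjusted p = 0.014). No cell cycle gene differed, and 1 fibroblast gene, S100a4, did (0.67 ± 0.14 over DMSO, adjusted p = 0.0432). At the low shares over all genes, few calls or none would be met in lists of this size, so the lists without a call show little.

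**Figure D5:**
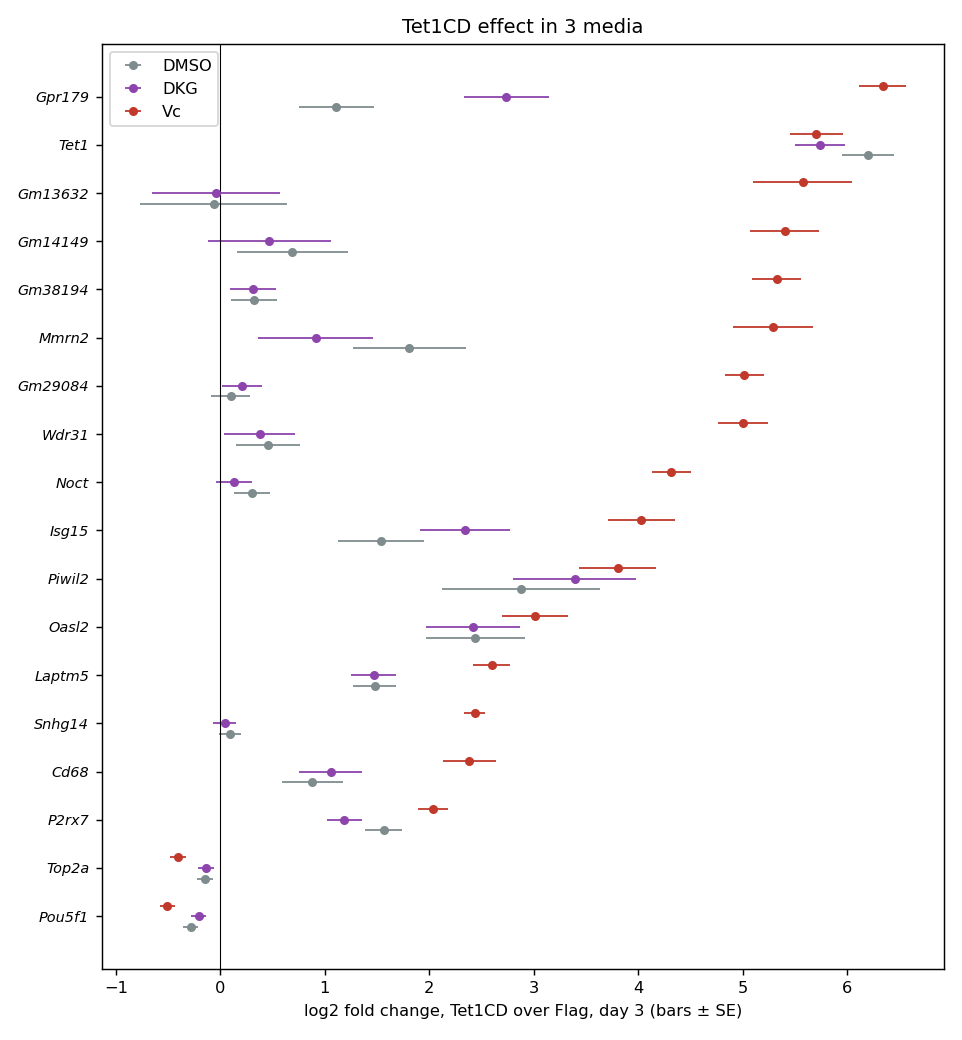
Log2 fold change of Tet1CD over Flag at day 3 (bars ± SE) with DMSO (grey), DKG (purple) and Vc (red) for the named genes of largest rise or difference and some list genes, where every SE is under 1. Noct, Gm29084, Gm38194 and Wdr31 lie near 0 with DMSO and DKG and at 4.32 to 5.33 with Vc, while Tet1 lies between 5.71 and 6.2 in all 3 media.

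At day 8 the same comparison with Vc, in 4 other libraries, called 970 genes higher (6.92%) and 798 lower (5.69%) with a block within each day, and 73 in all without it. Of the genes higher at day 3, 388 (23.28% of the day 3 and 40% of the day 8 list) were also higher at day 8, and 137 of the lower ones (12.4% and 17.17%) were lower again. A further 89 were higher at day 3 and lower at day 8, and 119 the reverse. The difference between the days was called in 1241 genes (8.85%), in 19 without the block, and in 641, 608 and 620 without Flag D3 0824, Tet1CD D3 0824 or Flag D8 0826.

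Cell cycle genes turned round between the days. At day 8, 25 of the 30 were higher and 0 lower in Tet1CD cells, where 22 had fallen at day 3, and the day difference was called in 27 of them. Over all genes, 6.92% were higher and 5.69% lower at day 8, and the day difference was called in 8.85%. Top2a stood at 270 ± 1.48 CPM in Flag and 441 ± 5.46 CPM in Tet1CD cells at day 8 (mean ± SD, n = 2), and its effect differed from that at day 3 by 1.12 ± 0.11 (adjusted p = 2.06e-05). At day 8, 7 of the 35 genes of the fibroblast list rose and 2 fell, the latter near the share of all genes that fell. The 2 were Acta2 and Tagln, which had risen at day 3 (-0.60 ± 0.15 and -0.65 ± 0.17 at day 8, adjusted p = 0.014 and 0.0154). The day difference was called in 14 members of the list, such as Thbs1 (-1.08 ± 0.16, adjusted p = 0.000489). Interferon genes rose on both days, 24 of the list at day 8, with the day difference called in 2, near the share over all genes. All 4 reprogramming factors were again lower at day 8. P2rx7, an ATP-gated channel, rose at day 3 (2.04 ± 0.15) and was not called at day 8. It then stood at 99.3 ± 2.31 CPM in Flag and 87.6 ± 9.85 CPM in Tet1CD cells (adjusted p = 0.364). Noct stood at 426 ± 107 and 3586 ± 94.5 CPM at day 8, and Gpr179 at 22.4 ± 8.79 and 137 ± 25.9 CPM, so that the Gpr179 fold was smaller than at day 3 by 3.71 ± 0.33 on the log2 scale while its Flag level was higher.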

How the data were processed

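Trizol RNA and the TruSeq RNA kit were used, per the labels' protocols, and the submitters' processing notes name Bowtie, RSEM and mm10, with versions not given in the sources used here. The authors deposited, for each library and gene, expected counts and TPM from RSEM, per the file headers. Expected counts were rounded to whole numbers and tested with edgeR 4.0.16 (R 4.3.3), with TMM scaling, its filter on low counts, group means and the title number as a block, over the 12 day 3 libraries. The threshold for a call was an adjusted p of 0.05 (Benjamini-Hochberg over 13079 genes), and the SE is the log2 fold change over the root of F. Day 8 was fitted with 24 libraries. DESeq2 1.42.0 and, on log2(TPM + 0.5), limma 3.58.1 were alternatives, and the edgeR steps were tested on simulated data. Libraries with the same title number deviated together, with correlations of 0.409 to 0.619 over 15 pairs of groups. The lowest, 0.409, was that between Tet1CD Vc and Flag Vc, the groups compared here. No label says what the numbers mark. Day 3 libraries held 4206368 to 5816953 counts, so that 3 counts are 0.516 to 0.713 CPM. Of 29267 gene IDs 28756 matched GENCODE M21, and the other 511 held 0.271% to 0.361% of counts. Promoters are from RefSeq (GRCm38.p6), and shared stretches held by a gene of chromosome 18 were passed over. Members and lists were chosen with earlier results of these data known. Named were the 14 highest and 8 lowest called genes that moved alike in both pairs and averaged at least 5 CPM, up to 4 called members of each list (2 where none was called) and 4 genes per test of a difference; some of these are not reported here. Slc38a6, Sycp1, Tex15, Stag3, Irf7, Usp18, Ifih1, Ddx58, Col1a2, Vim and Csf1r were added after their values were seen. 3 single libraries of MEF in a medium were not used here.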

Additional observations from a re-analysis of the deposited data

Results flagged for a closer look

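The effect of Tet1CD differed between media in a test of the difference itself, in 119 genes between Vc and DMSO and in 82 between Vc and DKG. The difference in log2 fold change from DMSO was 4.92 for Gm29084, 2.35 for Snhg14, 4.01 for Noct and 5.01 for Gm38194. From DKG it was 4.81 for Gm29084, 2.39 for Snhg14, 4.19 for Noct and 5.02 for Gm38194. These 4 transcripts share sequence with other genes, so the source of their reads is uncertain.

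The effect of Tet1CD with Vc differed between day 8 and day 3 in 1241 genes. The difference in log2 fold change (day 8 less day 3) was -3.71 for Gpr179, -2.22 for P2rx7 and 1.12 for Top2a.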

How the results depend on the processing

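The comparison rests on 2 libraries a group, and the block decides most of its calls. Without the replicate block 187 genes were called in place of 2772 for Vc at day 3, 14 in place of 119 and 13 in place of 82 for the differences from DMSO and DKG, and 19 in place of 1241 for the difference between days. Of the calls, 94.7% were higher without the block and 60.1% with it. With 28 libraries and no block the first 3 counts were 72, 15 and 18. For Vc at day 3, DESeq2 called 1599, limma on TPM 1779 and a fit of the 4 libraries alone 1150 (83.1% higher). For the differences from DMSO and DKG, limma called 45 and 40, and keeping genes with at least 1 count gave 564 and 471. The fit of 24 libraries called 65 for the difference from DMSO. Leaving out 1 library at a time gave 1404 to 2941 calls for Vc at day 3, 52 to 624 and 40 to 452 for the differences from DMSO and DKG, and 608 to 1517 for the difference between days. The causes were not tested. Nanog, which was not called, turned from -1.10 to 1.98 in log2 fold change without Flag Vc 0824 (adjusted p = 0.376), and lay between -2.67 and 1.98 with 1 library left out. No scaling moved the median of all genes by over 0.1. At these depths genes with a few counts, most of the germline list among them, could not be tested.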
